A study of Homo sapiens with 48 samples.

Results

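The 10 genes described here switch Wnt signaling on or off at steps from the membrane to the nucleus. Their levels were followed in HEK293T cells after release of the electrophile HNE at the cap-binding protein NCBP1. These genes act on the cell surface, on Dishevelled, in the complex that degrades beta-catenin or with beta-catenin on DNA. The genes were LGR4, LGR5, RNF43, ZNRF3, AXIN1, AXIN2, NKD1, NKD2, LEF1 and TCF7L2. They were chosen by symbol, with earlier results of these data known, and matched through their Ensembl identifiers. All 10 were among the 14685 genes of the count tables. HEK293T, a human embryonic kidney line, was transfected with a plasmid encoding NCBP1 fused to Halo, which all 4 arms carried, so NCBP1 was overproduced in controls too. In T-REX, cells received the photocaged probe Ht-PreHNE, which binds Halo, were rinsed and then were illuminated to release HNE. The study's T-REX method that covers RNA-seq lists the alkyne form of this probe, which releases an alkyne-bearing analog of HNE. HNE here stands for either form. Light alone is named for its light, although the study's methods list the probe with light for it as for T-REX, so that what it omits cannot be read from these sources. Probe alone had the probe without light, and DMSO had neither. RNA was taken 3, 6 and 12 h later, with 4 libraries for each arm and time, labelled WT and described as independent biological replicates, and 48 libraries in all.

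Wnt ligands bind Frizzled receptors and keep beta-catenin from being degraded, and beta-catenin then activates genes together with TCF/LEF factors. Cells hold this pathway in check with feedback genes that the pathway itself often induces. RNF43 and ZNRF3 are membrane ubiquitin ligases that remove Frizzled, and R-spondins counter them by binding LGR4 or LGR5. AXIN1 and AXIN2 are scaffolds of the complex that degrades beta-catenin, NKD1 and NKD2 bind Dishevelled and inhibit signaling, and LEF1 and TCF7L2 are DNA-binding partners of beta-catenin. AXIN2, NKD1, RNF43, ZNRF3, LGR5 and LEF1 are widely used as readouts of the pathway.

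LGR4 was the only member called lower against more than 1 control and NKD2 the only one called at 6 h, and the 250 bases before the RefSeq start site of each are shown for context in GRCh38.p14, 5′ to 3′ on the strand of the gene. The LGR4 window, chr11:27472791-27473040 on the minus strand, overlaps an antisense transcript, AC100771.2, in GENCODE 29. The NKD2 window is chr5:1008552-1008801 on the plus strand. Capitals mark CCAAT on either strand, the box read by NF-Y.
LGR4: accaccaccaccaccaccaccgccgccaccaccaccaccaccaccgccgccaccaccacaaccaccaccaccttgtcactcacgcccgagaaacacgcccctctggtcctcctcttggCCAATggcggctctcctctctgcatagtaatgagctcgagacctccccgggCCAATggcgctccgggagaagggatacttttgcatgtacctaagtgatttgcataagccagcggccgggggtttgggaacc
NKD2: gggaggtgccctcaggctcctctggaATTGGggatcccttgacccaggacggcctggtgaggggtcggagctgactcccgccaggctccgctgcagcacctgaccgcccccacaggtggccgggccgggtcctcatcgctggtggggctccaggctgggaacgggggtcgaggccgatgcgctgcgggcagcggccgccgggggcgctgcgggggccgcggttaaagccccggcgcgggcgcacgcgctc
CCAAT stood 2 times in the LGR4 window and 1 time in that of NKD2, and 32.0% of all 35116 windows of this length held it. The TCF/LEF motif was searched on both strands as CTTTGAA or CTTTGAT or CTTTGTA or CTTTGTT, and was in neither, against 12.0% of all windows. RefSeq windows were found for 6 of the 10 members, 9 windows in all, and only 1 of these, an inner start of TCF7L2, held TCF/LEF letters. A match or its absence describes these letters only.

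Total counts per library ran from 23952455 to 37099535. Levels are given as CPM, a library's reads scaled to a common total that edgeR's TMM method adjusts, and its factors ran from 0.954 to 1.06. NCBP1, counted with the plasmid's coding sequence, took 31200 to 91280 CPM, and 3 of its 9 comparisons with T-REX were called. Whether these differences in NCBP1 bear on the comparisons of the members was not tested. VIM stood between 432 and 683 CPM and CDH2 between 61.0 and 104, while KRT8, KRT18, CDH1 and LHX1 each stayed below 14 CPM. KRT19, EPCAM, PAX2 and PAX8 were looked for by symbol and were not among the genes of the count tables. CDH2, the neuronal cadherin, was called lower under T-REX than DMSO at 3 and 12 h, and the other 5 markers in no comparison with T-REX.

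Per kilobase of annotated exon, LGR4, LEF1 and TCF7L2 were the most abundant members. Their medians over 48 libraries were 14.8, 13.5 and 10.6 CPM per kilobase, and their ranges overlapped. ZNRF3 followed at 6.86, with a range that overlapped no other, and AXIN1 at 2.09, with a range that overlapped that of LGR5. LGR5, AXIN2 and NKD1 lay at 0.976, 0.729 and 0.715, NKD2 at 0.388 and RNF43 at 0.237, and neighbours in this order overlapped. The exon length of NKD1, 17425 bases, counts every annotated exon, so its level per kilobase is a low estimate if cells use a shorter form. NKD2 was the rarest member in unscaled counts, with 8 to 82 reads in a library (median 33.5), against 1857 to 3380 for LGR4. Only 0.048% of all genes in the count tables had a lower median CPM than NKD2. Replicates differed accordingly, with a median coefficient of variation within groups of 30.6% for NKD2 and 24.8% for RNF43, and of 4.02% for LGR4 and 4.42% for LEF1.

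The paralogs of each pair differed in level within a library. LGR4 exceeded LGR5 per kilobase in 48 of 48 libraries, by a median of 15.5-fold. ZNRF3 exceeded RNF43 in 48 of 48, by a median of 30.3-fold. AXIN2 lay below AXIN1 in all 48 libraries, with a median log2 ratio of -1.55. NKD2 exceeded NKD1 in only 4 of 48 libraries, 2 of them of T-REX at 3 h, 1 of light alone at 3 h and 1 of DMSO at 6 h.

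**Figure D1:**
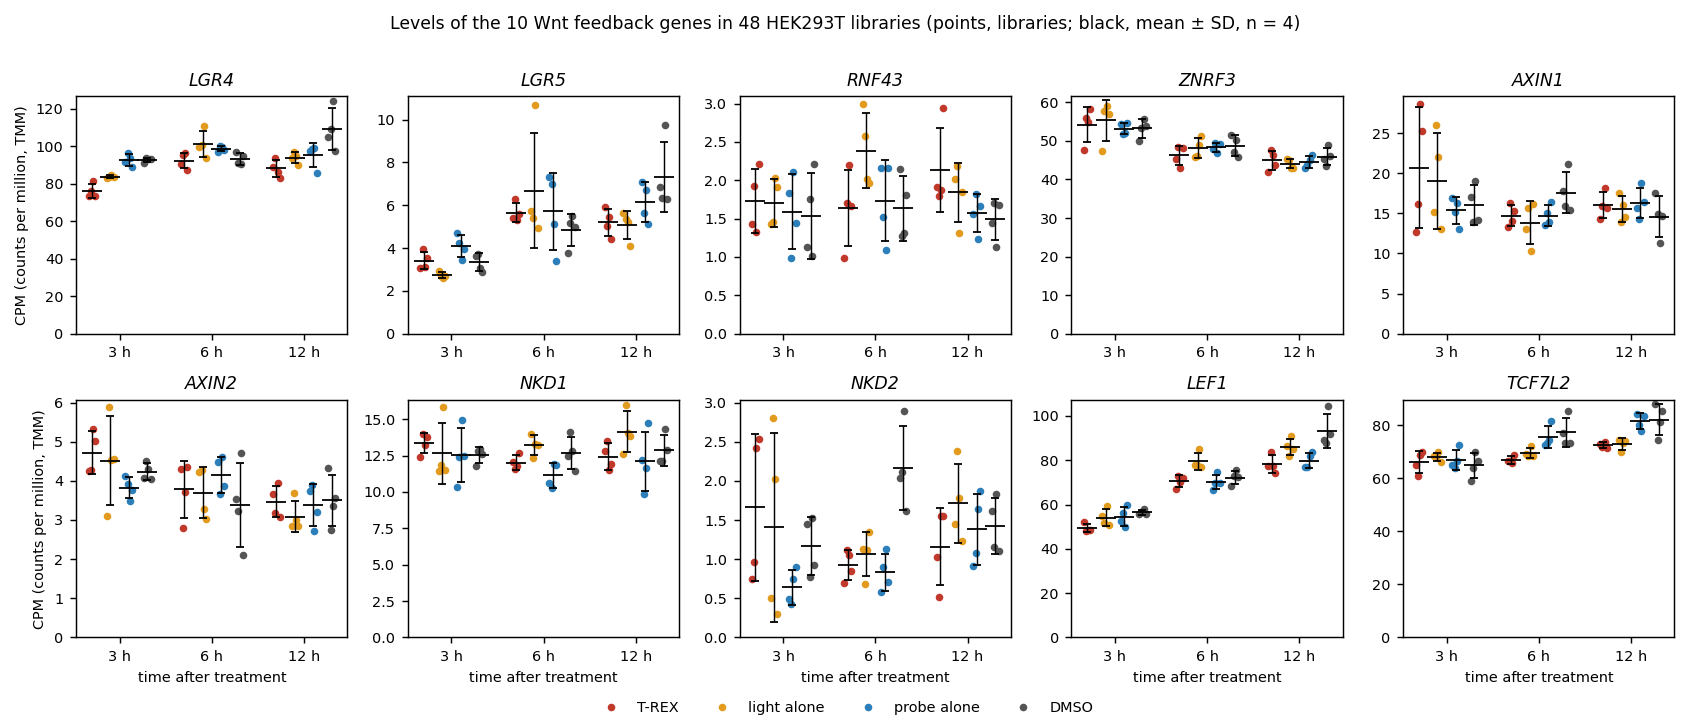
Levels of the 10 members in CPM (linear axes from 0) at 3, 6 and 12 h, with 1 point per library in replicate order from left to right and the mean ± SD (n = 4) in black. LGR4 under T-REX at 3 h lies between 73.5 and 81.7 CPM, below the 12 control libraries, and NKD2 in DMSO at 6 h lies between 1.61 and 2.90 CPM, above the other 12 libraries of that time.

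The first question was which members differed between T-REX and each control. Comparisons used edgeR's quasi-likelihood test over the 16 libraries of a time point, with Benjamini-Hochberg adjustment over all genes of a comparison, and a member with an adjusted p of at most 0.05 was called. The 3 comparisons of a time share the T-REX libraries. In these bulk samples, fewer cells with a transcript and less of it per cell cannot be told apart.

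At 3 h, LGR4, the R-spondin receptor, was the only member called, and it was lower under T-REX. Its T-REX libraries held 73.7, 76.2, 81.7 and 73.5 CPM. Light alone held 83.0, 83.6, 84.9 and 83.8 CPM, probe alone 91.7, 96.5, 93.6 and 88.8, and DMSO 90.8, 93.7, 93.0 and 93.2. The T-REX libraries thus lay below every control library, and light alone lay between T-REX and the other 2 controls without overlapping them. LGR4 was lower than in probe alone by a log2 fold change of -0.28 ± 0.05 (SE, adjusted p = 0.00675). For DMSO the value was also -0.28 ± 0.05, with an adjusted p of 0.00177. Against light alone it was -0.14 ± 0.05 (95% interval -0.23 to -0.04, adjusted p = 0.172), which was not called. With the 2 deposited factors of unwanted variation (RUV), scores per library, as covariates, LGR4 was called lower than light alone too (adjusted p = 0.0296). These covariates also raised the number of member calls between controls. Whether calls made only with them reflect T-REX was not tested. The call against DMSO held in 23 of 23 alternative settings and that against probe alone in 22, the exception being the fit to T-REX and probe alone without other arms (adjusted p = 0.125). The 2 calls stood against 1.05% of all genes called for probe alone (0.81% lower under T-REX) and 5.99% for DMSO (4.54% lower), with 0.197% for light alone.

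LGR4 was also the only member lower against at least 2 of 3 controls at 3 h, a rule met by 0.947% of all genes. At 6 and 12 h no member met it, against 0.136% and 1.4% of all genes.

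The other members at 3 h were not called. LEF1, a TCF/LEF factor, had 52.0, 48.2, 48.3 and 48.5 CPM under T-REX and 55.5, 56.8, 57.9 and 55.8 in DMSO. These groups did not overlap, and the log2 fold change was -0.20 ± 0.06 (adjusted p = 0.0602), which was called with the RUV factors as covariates (adjusted p = 0.00773), with DESeq2 (adjusted p = 0.038) and in 2 of 16 fits that left out a library. LGR5, the second R-spondin receptor, differed from light alone by 0.32 ± 0.15 on the log2 scale (adjusted p = 0.332) and from probe alone by -0.26 ± 0.15 (adjusted p = 0.37). For ZNRF3, TCF7L2 and NKD1, the 95% intervals against the 3 controls lay within -0.18 and 0.33.

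NKD2 and AXIN1, both inhibitors of the pathway, split the replicates of an arm at 3 h. AXIN1 stood at 12.7, 16.2, 28.7 and 25.2 CPM under T-REX and at 15.2, 26.0, 22.0 and 13.1 with light alone. NKD2 stood at 0.752, 0.961, 2.42 and 2.53 CPM under T-REX and at 0.510, 2.80, 2.03 and 0.294 with light alone. In both arms the same 2 libraries were high for both genes, namely T-REX replicates 3 and 4 and light alone replicates 2 and 3. The first RUV factor was 0.561, 0.228, -0.546 and -0.202 in the T-REX libraries and 0.159, -0.200, -0.175 and 0.225 with light alone, so it was below 0 in those 4 libraries and above 0 in the other 4. Its part in these values was tested only by adding both factors as covariates. The log2 fold change of NKD2 against probe alone was 1.38 ± 0.61 (adjusted p = 0.253) and that of AXIN1 was 0.43 ± 0.26 (adjusted p = 0.401). With the factors as covariates both were called higher under T-REX than probe alone (adjusted p = 0.003 for NKD2 and 0.0017 for AXIN1), and AXIN1 against DMSO as well (adjusted p = 0.0046). The limit given above for calls made only with these covariates holds here too.

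At 6 h, NKD2, among the least abundant of all genes tested, was the only member called, and only against DMSO. It had 0.694, 1.12, 1.05 and 0.849 CPM under T-REX, from 21, 32, 37 and 25 reads. DMSO had 2.04, 2.11, 2.90 and 1.61 CPM, from 55, 68, 82 and 49 reads. Light alone had 1.13, 0.678, 1.11 and 1.35 CPM and probe alone 0.582, 0.903, 1.12 and 0.711. The DMSO libraries were above every library of the other 3 arms, which overlapped one another. The log2 fold change of T-REX against DMSO was -1.21 ± 0.27 (adjusted p = 0.0398), where 0.415% of all genes were called (0.238% lower). Against light alone it was -0.20 ± 0.28 (95% interval -0.79 to 0.38) and against probe alone 0.16 ± 0.29 (-0.44 to 0.76), where 0.218% and 0.109% of all genes were called. Light alone and probe alone differed from DMSO by -1.01 ± 0.26 (adjusted p = 0.153) and -1.38 ± 0.27 (adjusted p = 0.0814), neither called. The call was lost in 10 of 16 fits that left out 1 library, without each T-REX library, DMSO replicate 1, 2 or 3, light alone replicate 1, or probe alone replicate 2 or 4 (highest adjusted p over all alternatives, 0.166), and with limma-trend on the deposited values (adjusted p = 0.0555).

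LGR4 at 6 h had 90.6, 95.2, 96.3 and 87.2 CPM under T-REX and 96.7, 91.1, 90.4 and 94.8 in DMSO. These groups overlapped, with a log2 fold change of -0.01 ± 0.05 (95% interval -0.13 to 0.10). TCF7L2 was at 66.9 ± 1.37 CPM under T-REX (SD, n = 4) and 77.2 ± 5.61 in DMSO, a log2 fold change of -0.21 ± 0.06 (adjusted p = 0.105) that was called with the RUV factors (adjusted p = 0.00678), with DESeq2 (adjusted p = 0.031) and without light alone replicate 3.

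At 12 h, 4 members were called against DMSO, and all 4 were lower under T-REX. They were LGR4, LGR5, LEF1 and TCF7L2, 2 receptors and 2 transcription factors, and 10.9% of all genes were called in this comparison (6.79% lower). The median log2 fold change over the 10 members was -0.11 against DMSO, 0.01 against light alone and -0.03 against probe alone, and over all genes it was 0.00 in each. None of the 10 was called against light alone or probe alone, where 1.29% and 0.701% of all genes were. NKD2 at 12 h had 95% intervals against the 3 controls between -1.20 and 0.41.

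LGR4 had 89.1, 93.8, 86.5 and 83.1 CPM under T-REX at 12 h and 105, 109, 124 and 97.4 in DMSO. The groups did not overlap, and the log2 fold change was -0.31 ± 0.06 (adjusted p = 0.0035). DMSO replicate 3 was the highest, and without it the change was -0.24 (adjusted p = 0.0051). Light alone ran from 89.8 to 96.7 CPM, and probe alone had 97.7, 98.6, 99.1 and 85.5. Both overlapped T-REX, at -0.09 ± 0.06 (95% interval -0.22 to 0.04) and -0.11 ± 0.06 (-0.24 to 0.02).

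LEF1 had 77.6, 83.7, 77.6 and 74.2 CPM under T-REX and 89.3, 87.7, 104 and 91.7 in DMSO. The groups did not overlap, and the log2 fold change was -0.25 ± 0.06 (adjusted p = 0.00717). Without DMSO replicate 3 it was -0.19 (adjusted p = 0.0172), and fitting these 2 arms without the others gave an adjusted p of 0.0637. Under T-REX, LEF1 differed from light alone by a log2 of -0.14 (adjusted p = 0.3) and from probe alone by -0.03 (adjusted p = 0.909), neither called. LEF1 was also the only member called between 2 controls, lower with probe alone than DMSO by -0.22 ± 0.06 (adjusted p = 0.0278).

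LGR5 had 5.92, 5.02, 5.45 and 4.45 CPM under T-REX and 6.87, 6.35, 9.76 and 6.30 in DMSO, without overlap. The log2 fold change was -0.49 ± 0.16 (adjusted p = 0.0473). This call was lost in 11 of 16 fits that left out 1 library, without each T-REX library, DMSO replicate 3, light alone replicate 1, 2 or 3, or probe alone replicate 1, 2 or 3. Without DMSO replicate 3 the change was -0.32 (adjusted p = 0.207). The call was also lost when T-REX and DMSO were fitted by themselves (adjusted p = 0.122) and with limma-trend (adjusted p = 0.0562). Light alone had 5.65, 5.34, 5.20 and 4.11 CPM, likewise below every DMSO library, a log2 difference from DMSO of -0.52 ± 0.16 (adjusted p = 0.353). T-REX differed from light alone by a log2 of 0.04 (adjusted p = 0.956) and from probe alone by -0.24 (adjusted p = 0.634), neither called.

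TCF7L2 had 72.9, 71.9, 73.7 and 71.3 CPM under T-REX and 87.8, 74.3, 81.1 and 85.2 in DMSO. The groups came close without overlapping. The log2 fold change was -0.18 ± 0.05 (adjusted p = 0.0322), and the call was lost in 6 of 16 fits that left out 1 library, namely each T-REX library or DMSO replicates 1 and 4, as well as when T-REX and DMSO were fitted by themselves (adjusted p = 0.139). Light alone had 74.4, 69.7, 73.4 and 74.0 CPM and probe alone 84.2, 80.0, 77.9 and 83.6. T-REX and light alone overlapped, and T-REX lay below every probe alone library, with a log2 fold change of -0.17 ± 0.05 (adjusted p = 0.19) that was called with the RUV factors (adjusted p = 0.0176) and when those arms were fitted by themselves (adjusted p = 0.049).

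The ubiquitin ligases, axins and NKD1 were not called at any time. RNF43 at 12 h had the largest positive estimate among them against DMSO, 0.52 ± 0.23 (adjusted p = 0.155), from 2.13 ± 0.54 CPM under T-REX against 1.49 ± 0.27 (SD, n = 4). ZNRF3 had 45.0 ± 2.55 CPM under T-REX and 45.9 ± 2.27 in DMSO, a log2 fold change of -0.03 ± 0.06 (95% interval -0.16 to 0.09). AXIN2, the most used readout of the pathway, had 95% intervals against the 3 controls between -0.38 and 0.53 at 12 h, and its 64 to 170 reads per library limit this precision.

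**Figure D2:**
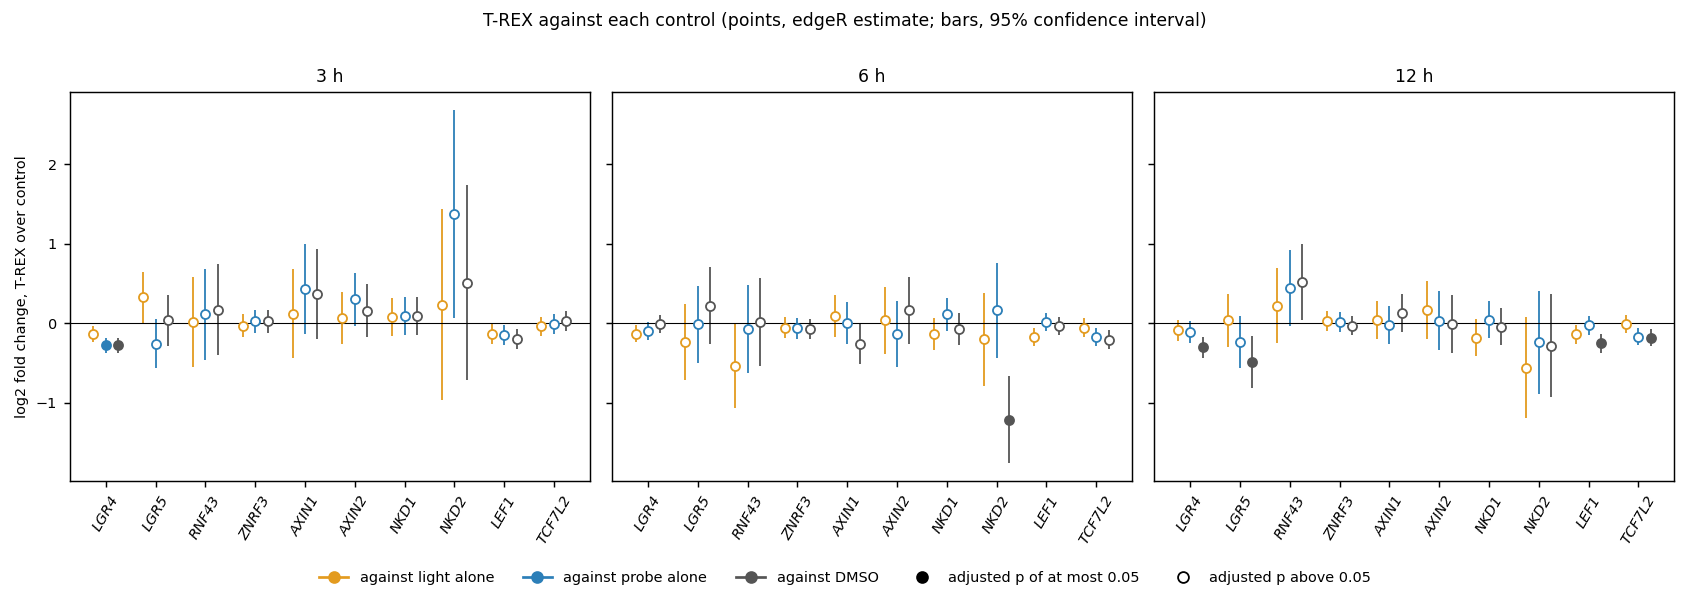
Log2 fold change of T-REX over light alone, probe alone and DMSO for the 10 members at 3, 6 and 12 h, with 95% confidence intervals from edgeR. Filled points had an adjusted p of at most 0.05, which were LGR4 at 3 h against 2 controls, NKD2 at 6 h against DMSO and 4 members at 12 h against DMSO.

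The controls were compared with one another in the same fits. LEF1 at 12 h was the only call among the 10 members over 9 comparisons. At 3 h, 0.00681% of all genes were called between light alone and DMSO, 0.00681% between probe alone and DMSO, and 0.232% for light alone against probe alone. At 6 h these shares were 0.00681%, 0.0272% and 0.0613%, and at 12 h 0.0136%, 5.11% and 0.415%. LGR4 at 3 h differed between light alone and DMSO by -0.15 ± 0.05 (adjusted p = 0.434) and between probe alone and DMSO by 0.00 ± 0.05 (95% interval -0.10 to 0.09), and at 12 h by -0.22 ± 0.06 (adjusted p = 0.353) and -0.19 ± 0.06 (adjusted p = 0.0749).

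Whether the T-REX difference changed between times was tested as an interaction in 1 fit of all 48 libraries, and no member was called. The lowest adjusted p among the 10 members over the 6 interactions was 0.109, for LGR4 against DMSO, where the log2 difference at 6 h was 0.27 ± 0.08 above that at 3 h. For NKD2 against DMSO, it was lower at 6 h than at 3 h by -1.72 ± 0.57 (adjusted p = 0.16). Of all genes, 0.0136% and 0.00681% were called for DMSO at 6 and 12 h less 3 h, 0% and 0.0204% for light alone, and 0% and 0.0681% for probe alone. DESeq2, RLE factors and the replicate block also called no member. A difference in the T-REX effect between times was thus not detectable for the 10 members.

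Times were next compared within each arm. The time points were deposited as separate tables, so hours after treatment and the handling of each set cannot be told apart. The log2 values come from the fit scaled over all 48 libraries and the CPM from scaling within a time, so the ratio of 2 printed means is not the fitted fold change. LEF1 rose from 3 to 12 h in all 4 arms, from 49.3 to 78.3 CPM under T-REX (log2 0.62 ± 0.06, adjusted p = 1.05e-12) and from 56.5 to 93.3 in DMSO (log2 0.67 ± 0.06). Light alone went from 54.1 to 86.1 CPM and probe alone from 54.6 to 79.8. LGR5 rose in all 4 arms over the same interval, by a log2 of 0.56 ± 0.19 under T-REX (adjusted p = 0.0167) and 1.08 ± 0.19 in DMSO. For light alone the value was 0.85 ± 0.20 and for probe alone 0.52 ± 0.19. ZNRF3, which removes Frizzled, fell in all 4 arms, from 54.2 to 45.0 CPM under T-REX (log2 -0.32 ± 0.06, adjusted p = 2.65e-05) and from 53.3 to 45.9 in DMSO (log2 -0.27 ± 0.06, adjusted p = 0.00033).

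LGR4 rose from 3 to 12 h under T-REX (log2 0.16 ± 0.05, adjusted p = 0.0122) and in DMSO (0.18 ± 0.05, adjusted p = 0.00527). TCF7L2 rose with probe alone (0.22 ± 0.05) and in DMSO (0.29 ± 0.05), and AXIN2 fell under T-REX (-0.49 ± 0.18, adjusted p = 0.0231) and with light alone (-0.59 ± 0.18, adjusted p = 0.00777). These calls in some arms and not in others are not a test between arms, which is the interaction above. For 12 h against 3 h, T-REX had 5 of 10 members called, beside 41.7% of all genes, and DMSO 5, beside 38.8%. Light alone and probe alone each had 4, beside 39.4% and 42.3%. For 6 h against 3 h, T-REX had 5 members called, light alone 4, probe alone 2 and DMSO 3, beside 23.3%, 25.3%, 21.5% and 16% of all genes, and LEF1 was the member that rose in all 4 arms. At that step LGR4 rose under T-REX (0.28 ± 0.05, adjusted p = 0.000109) and with light alone (0.27 ± 0.05, adjusted p = 0.000127).

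**Figure D3:**
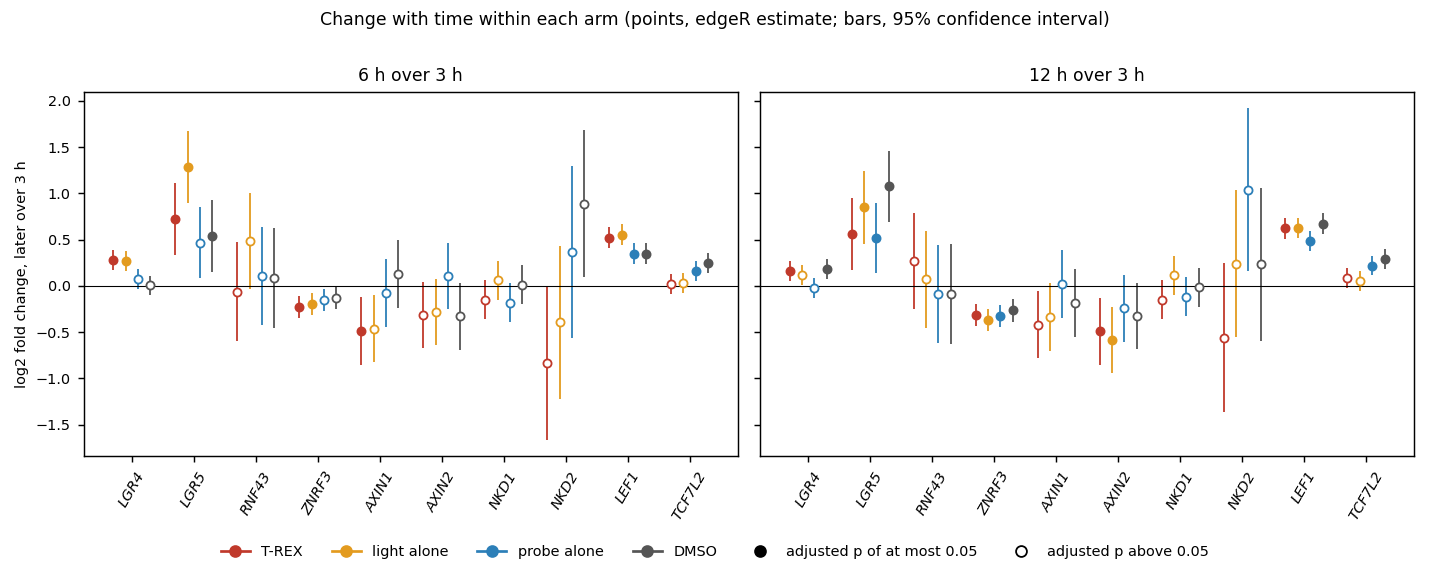
Log2 fold change of 6 h over 3 h and of 12 h over 3 h within each arm for the 10 members, with 95% confidence intervals from the fit of 48 libraries, filled where the adjusted p was at most 0.05. LEF1 and LGR5 lie above 0 and ZNRF3 below 0 in all 4 arms at 12 h, while no point of NKD2 is filled.

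The other genes of the pathway were read from 6 lists of ligands, receptors, antagonists, the Dishevelled and destruction complex, nuclear factors and beta-catenin targets, which together held 131 further genes, of which 85 were tested. Against DMSO, 9 of these 85 were lower and none higher at 3 h, 2 were lower at 6 h, and 12 were lower and 1 higher at 12 h. These are 10.6%, 2.35% and 15.3% of the 85, beside 5.99%, 0.415% and 10.9% of all genes. Against light alone, 1, 1 and 4 were lower at 3, 6 and 12 h, and against probe alone 1, 0 and 2, with none higher. These are 1.18%, 1.18% and 4.71% of the 85 for light alone, beside 0.197%, 0.218% and 1.29% of all genes, and 1.18%, 0% and 2.35% for probe alone, beside 1.05%, 0.109% and 0.701%. The share for probe alone at 3 h was thus near that of all genes. The lists were chosen with earlier results of these data known, so these shares only describe them and are no test of the pathway.

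Among 16 receptors and co-receptors, 3 were lower against DMSO at 3 h and 3 at 12 h. ROR1, a receptor for WNT5A, was lower at 3 h than in probe alone (log2 -0.38 ± 0.08, adjusted p = 0.0349) and in DMSO (-0.30 ± 0.08, adjusted p = 0.0357), but differed from light alone by -0.04 ± 0.08 (adjusted p = 0.871). FZD3, a Frizzled receptor, was lower than DMSO at 3 h (-0.27 ± 0.07, adjusted p = 0.0205) and 12 h (-0.34 ± 0.09, adjusted p = 0.0191). At 12 h it differed from light alone by -0.09 ± 0.09 (adjusted p = 0.74) and from probe alone by -0.07 ± 0.09 (adjusted p = 0.841). RYK joined them at 3 h (-0.16 ± 0.05, adjusted p = 0.0403), and FZD4 (-0.32 ± 0.08, adjusted p = 0.0103) and FZD8 (-0.55 ± 0.14, adjusted p = 0.0131) at 12 h. None of RYK, FZD4 and FZD8 was called against light alone or probe alone. At these times RYK differed from them by -0.01 ± 0.05 and -0.15 ± 0.05, FZD4 by -0.25 ± 0.08 and -0.22 ± 0.08, and FZD8 by -0.32 ± 0.14 and -0.18 ± 0.14. At 12 h, the median log2 fold change over the 16 receptors was -0.24 against DMSO, with 15 below 0, -0.08 against light alone and -0.09 against probe alone, beside a median of 0.00 over all genes in each.

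Of 6 genes of ligands and secretion, WNT5A, a ligand of the beta-catenin-independent branch, was lower at 12 h against probe alone (-0.28 ± 0.06, adjusted p = 0.0138) and DMSO (-0.28 ± 0.06, adjusted p = 0.00252). Against light alone WNT5A differed by -0.21 ± 0.06 (adjusted p = 0.0707), which was not called. WNT3 was the only pathway gene called higher, against DMSO at 12 h (0.34 ± 0.11, adjusted p = 0.0475), with 0.08 ± 0.11 against light alone and 0.06 ± 0.11 against probe alone. None of 3 extracellular antagonists was called in any comparison with T-REX. In the Dishevelled and destruction complex list of 24, FBXW11, a subunit of the ligase that ubiquitinates beta-catenin, was lower than DMSO at 3 h (-0.19 ± 0.05, adjusted p = 0.0231), and CTNNB1, which encodes beta-catenin, at 12 h (-0.24 ± 0.04, adjusted p = 0.00155). Of 21 nuclear factors, the corepressor CTBP2 was lower than DMSO at 3 h (-0.18 ± 0.05, adjusted p = 0.0399) and the kinase NLK at 12 h (-0.25 ± 0.08, adjusted p = 0.0376). None of FBXW11, CTNNB1, CTBP2 and NLK was called against light alone or probe alone. At 3 h FBXW11 differed from them by -0.12 ± 0.05 and -0.08 ± 0.05, and CTBP2 by -0.18 ± 0.05 and -0.09 ± 0.05. At 12 h CTNNB1 differed by -0.11 ± 0.04 and -0.15 ± 0.04, and NLK by -0.18 ± 0.08 and 0.08 ± 0.08.

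Of the 15 beta-catenin target genes, 6 were lower than DMSO at 12 h, 4 lower than light alone and 1, SOX9, lower than probe alone, with none higher. Of all genes, 10.9%, 1.29% and 0.701% were called in these comparisons, 6.79% as lower than DMSO. This list, too, was chosen with earlier results of these data known. BMP4, a ligand of the BMP pathway, was lower at 12 h against DMSO (-0.63 ± 0.10, adjusted p = 0.000394) and light alone (-0.54 ± 0.10, adjusted p = 0.00453), but differed from probe alone by 0.14 ± 0.10 (adjusted p = 0.682). CCND1, cyclin D1, was lower at 12 h against DMSO (-0.45 ± 0.11, adjusted p = 0.0122) and light alone (-0.52 ± 0.11, adjusted p = 0.0124). ID2, an inhibitor of basic helix-loop-helix factors, was lower against both at 6 h and 12 h, at 12 h by -0.37 ± 0.06 (adjusted p = 0.000251) and -0.40 ± 0.06 (adjusted p = 0.000226). TCF4, a basic helix-loop-helix factor whose symbol was once also used for TCF7L2, was lower by -0.29 ± 0.05 against each (adjusted p = 0.00115 and 0.00223). None of these 3 was called against probe alone at 12 h, where CCND1 differed by -0.29 ± 0.11 (adjusted p = 0.32), ID2 by -0.08 ± 0.06 (adjusted p = 0.677) and TCF4 by -0.08 ± 0.05 (adjusted p = 0.595).

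SOX9, a transcription factor, was lower at 12 h against probe alone (-0.59 ± 0.10, adjusted p = 0.00245) and DMSO (-0.49 ± 0.10, adjusted p = 0.00235). Against light alone SOX9 differed by -0.23 ± 0.10 (adjusted p = 0.303), which was not called. SOX4 was lower than DMSO at 3, 6 and 12 h, at 12 h by -0.54 ± 0.09 (adjusted p = 0.0011). SOX4 was not called against light alone or probe alone at any time, and at 12 h differed from them by -0.23 ± 0.09 and -0.26 ± 0.09. At 3 h the same list held BMP4, ID2, SOX4 and TNFRSF19, a receptor of the TNF family (-0.64 ± 0.16, adjusted p = 0.021), as lower than DMSO. Of these, only BMP4 was called against another control at 3 h, namely light alone. TNFRSF19 differed from light alone by -0.20 ± 0.16 and from probe alone by -0.53 ± 0.16. BMP4 and ID2 are also targets of BMP signaling. Of the 6 members named above as readouts, LGR5 and LEF1 were called lower than DMSO at 12 h, and AXIN2, NKD1, RNF43 and ZNRF3 were called in no comparison with T-REX. Whether members and listed targets differ in how often they are called was not tested.

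**Figure D4:**
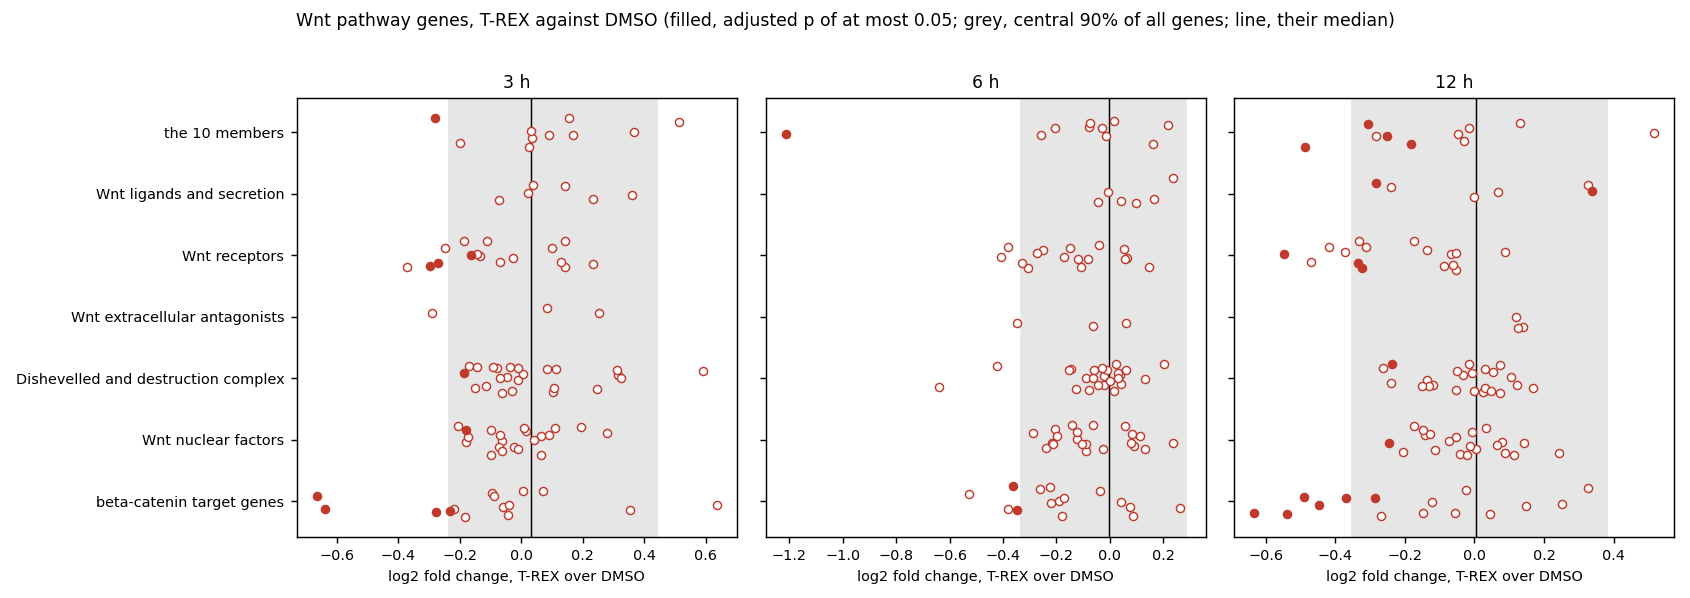
Log2 fold change of T-REX over DMSO at 3, 6 and 12 h for the 10 members and the genes of 6 Wnt pathway lists, 1 point per gene, spread vertically only for legibility. The grey band holds the central 90% of all genes and the line their median, and filled points had an adjusted p of at most 0.05, with 6 of 15 beta-catenin targets filled and below 0 at 12 h.

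The genes whose group means followed those of LGR4 most closely were YWHAZ, TM9SF2, MAGT1, MTPN and TMED2, with Pearson's r from 0.969 to 0.983 over the 12 group means, each centred on its time point, among 10133 genes with a mean log2 CPM of at least 3. Among the other members, LEF1 (r = 0.83) and LGR5 (r = 0.63) were closest to LGR4, and AXIN1 was the most opposed (r = -0.78). For NKD2 the closest were ATG4B, LRP3, FAM3A, UPF3A and MRPS25, with r from 0.880 to 0.929, and AXIN1 (r = 0.69) and NKD1 (r = 0.57) among the members. These values describe means that share libraries and carry no test.

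**Figure D5:**
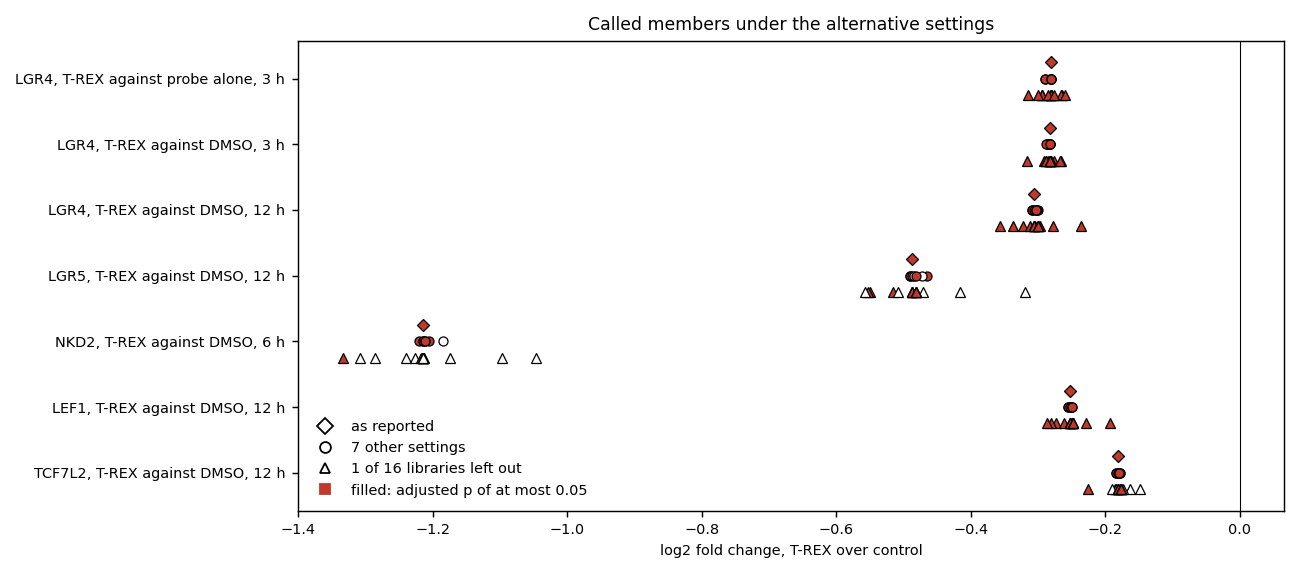
Log2 fold change of the 7 calls among members as reported (diamonds), under 7 other settings (circles) and with each of the 16 libraries of the time left out (triangles), filled where the adjusted p was at most 0.05. All values are below 0, and open triangles appear for LGR5, NKD2 and TCF7L2, but not for LGR4 or LEF1.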

How the data were processed

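RNA of HEK293T cells in 4 arms at 3 time points was analysed as 48 libraries. The authors depleted ribosomal RNA, prepared stranded libraries and sequenced them as paired ends on an Illumina NovaSeq. They deposited, for each time point, raw counts per gene by Ensembl identifier, which were tested here. Among what the authors deposited were also log2 CPM values, an alternative input here, and 2 factors of unwanted variation (RUV) as a score per library, which served as covariates in another alternative. Tables of values transformed with these factors were not used. The study's reporting summary names cutadapt, tophat and cufflinks for its RNA-seq, without saying how the deposited counts were made. The genome build and counting rule for these counts are not given in the sources used here, so whether strand was used is not known. Reads of LGR4 and its antisense transcript may therefore not be separated. Of 14685 genes, edgeR's filter on low counts removed 0.

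Counts were fitted with edgeR 4.0.16 in R 4.3.3 (TMM, filterByExpr, robust quasi-likelihood F-test), and alternatives used DESeq2 1.42.0 and limma 3.58.1. Tables were made in Python 3.11.15. A model held all 16 libraries of a time, and another of all 48 gave changes with time. Benjamini-Hochberg adjustment ran over all genes, separately for every comparison. SE is that of the log2 fold change. Symbols and merged exon lengths are from GENCODE 29, and promoter windows from RefSeq. All 10 members are named, as are pathway genes called alike against 2 or more of the 3 controls, or among the 3 with the lowest adjusted p of a list at a time. The members and lists were chosen with earlier results of these data known. No pair of replicates was as close as counting error alone would leave it (chi-square per degree of freedom of at least 3.15). The labels call replicates independent, and intervals cover the spread between these libraries only. The fits were tested on simulated data. Alternatives were DESeq2, RLE factors, no filter, a block for the replicate number, covariates for both RUV factors, models of just the pair of arms in question, limma-trend with the deposited log2 CPM as input, and leaving out each library.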

Additional observations from a re-analysis of the deposited data

Results flagged for a closer look

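In 120 groups of 4 libraries (10 members in 12 groups), 7 held a library that stood apart from the other 3 by Dixon's test at the 95% level, and chance gives about 1 in 20. Light alone replicate 3 at 6 h stood high for LGR5 (10.7 CPM against 4.92 to 5.71) and LEF1 (85.0 against 77.1 to 78.0), and its first RUV factor, -0.664, was the lowest of that time. DMSO replicate 3 at 12 h stood high for LGR5 (9.76 CPM against 6.30 to 6.87), with the highest first RUV factor of its time, 0.788, and it enters the comparisons of T-REX with DMSO given above. Probe alone replicate 4 at 12 h was low for LGR4 (85.5 CPM against 97.7 to 99.1). RNF43 was high in T-REX replicate 4 at 12 h (2.94 CPM against 1.80 to 1.91), NKD1 in light alone replicate 3 at 3 h (15.8 against 11.5 to 11.9) and LEF1 in T-REX replicate 1 at 3 h (52.0 against 48.2 to 48.5). The part of these libraries in the results was tested only by leaving each one out.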

How the results depend on the processing

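Of the 7 calls of members with T-REX, none reversed in direction under the 23 alternatives. Over the 3 controls, 2 calls at 3 h became 7 with the RUV factors and 1 in fits of only 2 arms. The single call at 6 h became 4 with the RUV factors, 2 with DESeq2 and 0 with limma-trend on the deposited log2 CPM. The 4 calls at 12 h became 2 in fits of only 2 arms, where only LGR4 of the 4 was still called against DMSO and TCF7L2 against probe alone was added. Members called against at least 2 controls went from 1 to 2 (LGR4 and AXIN1) at 3 h and from 0 to 2 (LEF1 and TCF7L2) at 12 h with the RUV factors, and from 1 to 0 at 3 h in fits of only 2 arms. Between controls, 1 call became 17 with the RUV factors, 2 with DESeq2 and 2 with the replicate block. The cause was not tested. Leaving out 1 library gave 2 to 3 calls at 3 h, 0 to 2 at 6 h and 2 to 4 at 12 h, and 1, 0 and 0 members against at least 2 controls. Changes with time within arms, 32 calls, were 35 with DESeq2, 31 with RLE factors and 32 with the replicate block, all added after seeing the data.

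Replicate numbers were not used as pairs in the fits reported. Same-numbered libraries of different arms had a median correlation of deviations of 0.0666 at 3 h, -0.0101 at 6 h and -0.00013 at 12 h. Single values ran from -0.644 to 0.580 at 3 h, from -0.538 to 0.473 at 6 h and from -0.348 to 0.234 at 12 h. Whether some libraries were handled in pairs cannot be read from these medians. With the number as a block in the fit, the same 7 calls with T-REX were made. The 8 to 82 reads of NKD2 and 29 to 106 of RNF43 limit the precision for both genes.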
